A study of Mus musculus with 24 samples.

Results

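The CpGs described here lie inside the transcription factor (TF) motifs that were cloned into FR1, a bacterial DNA fragment of intermediate CpG content, and inserted into mouse embryonic stem cells (ESCs). They were picked by position alone, as the CpGs numbered 1 to 3 inside a motif, and a value was kept where at least 10 reads covered it in a pool. This gave 39 of the 1466 CpGs measured on 62 fragments. Of these, 20 lie in wild-type (WT) motifs and 19 in their scrambled (Sc) controls, on 30 fragments carrying 15 of the 30 motifs: CTCF.1, CTCF.2, REST, N-MYC, KLF4, KLF7, NRF1, E2F1, ETS, CREB, KAISO, ZF5, ER, PU.1 and PAX7.1. In their WT form 11 of these motifs hold 1 CpG, 3 hold 2 (NRF1, E2F1 and KAISO) and 1 holds 3 (ZF5, whose Sc form has CpGs 1 and 3). The number of a CpG gives its order within the motif, so WT minus Sc at CpG 1 compares CpGs that occupy the same slot in different sequences.

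A CpG inside a binding site is the position where DNA methylation and TF binding meet most directly. In vertebrates de novo methyltransferases add methyl groups to unmethylated CpGs, DNMT1 copies them at replication, and the TET enzymes oxidise them as a first step of active removal. Binding of several factors, among them CTCF, NRF1 and N-MYC, is known to be sensitive to methylation of a CpG in the site, whereas KAISO can bind methylated CpGs, and bound CTCF and REST are known to be accompanied by low methylation of the surrounding DNA.

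In Hi-TransMet, a library of plasmids, each with FR1 and 1 motif between barcodes, was exchanged into a single site at the β-globin locus, which is inactive in these cells, so that every cell carried 1 fragment. The library was either left unmethylated (−SssI) or methylated in vitro at CpGs by the bacterial enzyme M.SssI before transfection (+SssI). Methylation was read by bisulfite PCR with an amplicon upstream and an amplicon downstream of the motif, and the CpG inside the motif was read in both. The 5 pools were ESCs −SssI and ESCs +SssI (strain C57BL/6 X 129S5), neuronal progenitors (NPs) obtained in vitro from each of those, and ESCs lacking TET1, TET2 and TET3 (TET TKO, strain C57BL/6 X 129/sv) transfected with the +SssI library. The NPs carried fragments inserted at the ESC stage, so their methylation includes what was present before differentiation, and no TET TKO pool was transfected with the −SssI library.

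Each pool combined 3 to 9 runs, whose reads were summed. In ESCs −SssI and NPs +SssI the title of the second sample names a Sanger sequencer, so these sums may mix sequencing platforms. Per the study's methods such sums hold biological as well as technical replicates, and which runs are of which kind is not given in the sources used here. The motif CpGs were covered by 54 to 2521 reads in ESCs −SssI (median 216), 45 to 1664 in ESCs +SssI (median 466), 39 to 4619 in NPs −SssI (median 470), 180 to 3659 in NPs +SssI (median 1170) and 96 to 615 in TET TKO ESCs (median 293). All tests below compare reads of pooled libraries and not independent cultures, and intervals cover counting error only. Runs differed: in ESCs −SssI the median level of CpGs outside Sc motifs was 35.7% in run 4 against 80.0 to 81.8% in runs 5, 1 and 2, and in ESCs +SssI it was 50.7% in run 4 against 77.4% in run 5. Where leaving out a single run ended a call described below motif by motif, or moved its value by more than 1.5 times, the value without that run is given. Where too few reads were left without a run, there is no such value to give.

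Transcripts of the factors were measured by RNA sequencing of 3 libraries per cell type, given as mean RPKM ± SD (n = 3). The ESC markers Pou5f1 (402 ± 16.8) and Nanog (290 ± 12.8) were high in ESCs and near background in NPs (1.18 ± 0.773 and 1.001 ± 0.672), where the neural markers Pax6 (15.9 ± 3.30) and Nes (79.5 ± 16.7) were present. Fewer expressing cells and less RNA per cell cannot be told apart in such bulk libraries. Ctcf, encoding the zinc finger insulator protein, was at 46.5 ± 4.52 in ESCs, at 42.6 ± 3.69 in NPs and at 55.2 ± 6.06 in the TET TKO line. Rest, a repressor of neuronal genes, was at 73.8 ± 1.85, 10.2 ± 1.49 and 73.6 ± 7.21 in the same order, and the pluripotency factor Klf4 at 73.9 ± 1.22, 3.00 ± 0.201 and 34.3 ± 9.33. Mycn was abundant in all 3 cell types (60.5 ± 6.45, 55.6 ± 3.84 and 73.7 ± 28.2). At the other end, Esr1 did not exceed a mean of 0.0177 in any cell type, Spi1, which encodes PU.1, did not exceed 0.389, and Pax7 was at 0.153 ± 0.0184 in ESCs and 7.99 ± 4.44 in NPs. The remaining factor genes (Klf7, Nrf1, E2f1, Ets1, Zbtb33 for KAISO, Creb1 and Zbtb14 for ZF5) had means between 0.640 and 27.4. In the TET TKO libraries Tet1 was at 12.3 ± 1.87 against 66.7 ± 4.59 in ESCs and Tet2 at 2.25 ± 0.125 against 19.4 ± 2.52, while Tet3 was low in both (0.499 ± 0.0552 and 0.733 ± 0.0829). Counts over whole genes do not show which exons are missing.

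Across all 15 motifs the WT CpGs covered nearly the whole methylation range in 4 pools and a narrow, high range in TET TKO ESCs. The median over the 20 WT CpGs was 28.9% in ESCs −SssI (0 to 82.6%), 56.2% in ESCs +SssI (1.90 to 91.8%), 84.4% in NPs −SssI (0.122 to 99.8%), 81.9% in NPs +SssI (0.0840 to 93.9%) and 96.0% in TET TKO ESCs (79.9 to 99.6%). For the 19 Sc CpGs the medians were 50.5%, 56.3%, 91.2%, 87.4% and 92.2% in the same order. WT CpGs under 10% were 3 in ESCs −SssI (CTCF.1, CTCF.2 and REST), 2 in ESCs +SssI (CTCF.1 and REST), and CTCF.1, CTCF.2 and REST again in each NP pool. In TET TKO ESCs no WT CpG was under 79.9%, and 12 of 20 were over 90%.

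Each motif CpG was first compared between WT and Sc by Fisher's exact test on reads, two-sided, and called where the p adjusted by Benjamini-Hochberg was under 0.05 and the forms differed by at least 10 points. This difference, WT minus Sc, is written Δmet. Of 19 CpGs present in both forms, 12 were called lower and 3 higher in WT in ESCs −SssI, where 43.9% and 28% of all CpGs tested were called lower and higher. In ESCs +SssI the counts were 9 lower and 5 higher (48.3% and 13.6% of all CpGs), in NPs −SssI 8 and 3 (30.4% and 15.7%), in NPs +SssI 6 and 0 (36.6% and 9.66%), and in TET TKO ESCs 1 and 2 (19.9% and 22.4%). Over the 5 pools 36 of 95 comparisons were called lower and 13 higher, beside 35.7% and 17.9% of all CpGs, so the share of calls among motif CpGs was close to that along the whole fragment. Of the 36 lower calls, 31 could be compared within runs that held both forms, where 26 were called again and 3 had the opposite sign. Of the 13 higher calls, 6 were called again and 3 had the opposite sign.

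Motif CpGs were then compared with the nearest CpG on each side of the same fragment, 32 bp upstream and 37 bp downstream of the motif start, taking the mean of the 2 levels as the flank. The p-value of Fisher's exact test came from the summed reads at both neighbours, while the mean set the direction and the 10 points. Over all 39 CpGs, 8 were called lower and 6 higher than their flank in ESCs −SssI (25% and 23.8% of all CpGs on all fragments, each against its own neighbours), 9 and 8 in ESCs +SssI (22.2% and 22.5%), 10 and 5 in NPs −SssI (16.5% and 15.6%), 11 and 2 in NPs +SssI (17.9% and 15.1%), and 4 and 2 in TET TKO ESCs (9.17% and 7.97%). By form, WT CpGs were called lower in 27 and higher in 12 of 100 comparisons, and Sc CpGs lower in 15 and higher in 11 of 95. Of the 20 WT CpGs, 5 were lower and 4 higher in ESCs −SssI (25.4% and 24.5% of all CpGs on WT fragments), 4 and 5 in ESCs +SssI (21.8% and 22.9%), 7 and 2 in NPs −SssI (19.5% and 18.6%), 9 and 1 in NPs +SssI (19.8% and 16.8%), and 2 and 0 in TET TKO ESCs (8.31% and 6.92%). Of the 19 Sc CpGs, 3 were lower and 2 higher in ESCs −SssI (24.8% and 23.5% of all CpGs on Sc fragments), 5 and 3 in ESCs +SssI (22.5% and 22.1%), 3 and 3 in NPs −SssI (13.8% and 13.1%), 2 and 1 in NPs +SssI (15.6% and 13.3%), and 2 and 2 in TET TKO ESCs (10.1% and 9.25%). The upstream amplicon gave 8.49 to 97.3% of the flank reads of a fragment, and taking the flank from summed reads instead gave 30 lower and 9 higher for WT, with 25 and 9 called in both.

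A further test asked whether Δmet at the motif CpG differed from Δmet averaged over its 2 flanking CpGs (z test, two-sided, adjusted in the same way), which removes what the Sc fragment shows at the same slot. Here a negative difference means that WT was lower than Sc by more at the motif than beside it. Lower and higher calls were 4 and 5 of 19 in ESCs −SssI (24.4% and 23.8% of all CpGs tested), 3 and 5 in ESCs +SssI (19% and 17%), 8 and 2 in NPs −SssI (22.3% and 21.4%), 8 and 1 in NPs +SssI (19% and 16.1%), and 4 and 1 in TET TKO ESCs (12.4% and 13.3%). Lower calls were most frequent in the NP pools. These values are given below, motif by motif, with ± for the half-width of the 95% interval. Reads at a motif CpG and at its neighbours can come from the same molecules. Fisher's exact test against the flank and this z test treat them as independent. Their p-values and intervals therefore leave this pairing out.

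The CpG of CTCF.1 was almost unmethylated in every pool except TET TKO ESCs. CTCF organises chromatin loops and insulates neighbouring domains, and its motif was represented by 2 variants with 1 CpG each. The level at CTCF.1 WT was 0.282% in ESCs −SssI, 1.90% in ESCs +SssI, 0.122% in NPs −SssI, 0.637% in NPs +SssI and 90.2% in TET TKO ESCs. The lowest, in NPs −SssI, was 1 methylated read of 818 (95% Wilson interval 0.0216 to 0.689%). At CTCF.1 Sc the level was 43.9% in ESCs −SssI, 43.2% in ESCs +SssI, 58.2% in NPs −SssI, 46.6% in NPs +SssI and 93.5% in TET TKO ESCs. The WT values lie below every Sc value in the first 4 pools, with Δmet of −43.6 points (95% interval −46.0 to −41.0), −41.3 (−48.2 to −34.1), −58.0 (−64.7 to −51.0) and −46.0 (−48.7 to −43.0), all called (largest Fisher's exact adjusted p = 2.07e-26), and −3.25 in TET TKO ESCs, not called. Without run 7 the ESC −SssI value was −66.1, and without runs 4 and 5 in turn the ESC +SssI value was −68.1 and −21.1. The forms were not apart in run 4 of ESCs −SssI, with 0 of 35 reads methylated in Sc and 1 of 80 in WT. In runs 5, 1, 2 and 7 of that pool Sc was at 31.1 to 70.5%.

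The CTCF.1 WT CpG was lower than its neighbours in the same 4 pools. The flanking CpGs averaged 12.4% and 14.4% in ESCs, 41.3% and 57.4% in the NP pools and 97.0% in TET TKO ESCs. The CpG minus its flank was −12.1 and −12.5 points in ESCs, −41.2 and −56.7 in NPs, each called, and −6.75 in TET TKO ESCs, not called. The 2 ESC calls were lost without run 1 (−9.89, −SssI) and run 5 (−3.89, +SssI), and without run 11 the NP −SssI value was −15.9, still called. The scrambled CpG was also called lower than its own flank there, with differences of −21.1, −23.8, −27.6 and −35.5 points (−15.7 in ESCs +SssI without run 4 and −11.1 in NPs −SssI without run 11). Changes of the difference from the flank between pools were not tested, for this or any other motif. After taking the Sc fragment into account the excess at the motif was −13.7 ± 9.48 points in NPs −SssI (adjusted p = 0.0064) and −21.3 ± 5.65 in NPs +SssI (adjusted p = 3.49e-12), and it was 9.002 ± 6.97 and 11.3 ± 10.6 in ESCs, not called. The NP −SssI call was lost when run 9, 10, 11 or 2 was left out (−9.47, −10.4, −4.77 and −9.41 in that order). The NP +SssI value compares forms mostly across runs, as given above.

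CTCF.2 gave low WT values at its CpG in the same 4 pools as CTCF.1. No methylated read was seen at CTCF.2 WT among 282 reads in ESCs −SssI, which allows a level of up to 1.06%. In the other pools the level was 11.9% in ESCs +SssI, 2.00% in NPs −SssI, 0.0840% in NPs +SssI and 86.2% in TET TKO ESCs. At CTCF.2 Sc it was 50.5% in ESCs −SssI, 57.4% in ESCs +SssI, 79.2% in NPs −SssI, 86.0% in NPs +SssI and 92.5% in TET TKO ESCs. Δmet was −50.5, −45.5, −77.2 and −86.0 points in the first 4 pools, all called, and −6.36 (−10.3 to −2.58) in TET TKO ESCs, not called, and without run 5 the ESC +SssI value was −22.8. In ESCs −SssI 249 of the 282 WT reads were from run 4, where Sc had fewer than 10 reads, so the forms were mostly compared across runs. In run 1, the only run with at least 10 reads of each form, WT was 0 of 11 and Sc was at 49.4%. In ESCs the CpGs beside the WT motif were low, with flanks at 0.314% and 14.8% (all CpGs outside the motif spanned 0 to 27.0% and 0 to 90%), and the motif CpG differed from them by −0.314 and −2.89 points, not called. In NPs the flanks were at 42.1% and 31.0%, and the CpG differed from them by −40.1 and −31.0 points, both called lower. Against the Sc fragment the excess in NPs was −27.6 ± 4.70 (−SssI) and −28.1 ± 4.48 (+SssI), and without run 9 the former was −17.6, still called. In ESCs −SssI the difference was the other way, 18.7 ± 3.04, with a Δmet of −69.3 at the flanks, and both values likewise compare forms mostly across runs.

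The CpG of REST, whose zinc fingers recognise a long site in neuronal genes, differed from its flank by the largest margin of all the WT motif CpGs in either NP pool. Its level at WT was 0 of 216 reads in ESCs −SssI (a level of up to 1.39% is allowed), 2.96% in ESCs +SssI, 0.991% in NPs −SssI, 2.23% in NPs +SssI and 79.9% in TET TKO ESCs. The REST Sc CpG was at 33.3% in ESCs −SssI, 43.3% in ESCs +SssI, 94.3% in NPs −SssI, 86.0% in NPs +SssI and 77.0% in TET TKO ESCs. WT and Sc were thus far apart in 4 pools, by −33.3 points (95% interval −46.6 to −22.1) and −40.3 (−44.6 to −35.6) in ESCs and −93.3 (−96.0 to −88.5) and −83.8 (−86.0 to −81.3) in NPs, and close together in TET TKO ESCs (2.90, −4.32 to 10.4, not called). In ESCs −SssI 212 of the 216 WT reads were from run 4, where Sc was at 32.5% on 40 reads. Without run 4 no value between forms was left there. In ESCs the WT flanks were at 4.97% and 4.79%, and the CpG differed from them by −4.97 and −1.83 points, not called. In NPs the flanks were at 54.4% and 70.1%, and the CpG lay −53.4 and −67.9 points from them, both called, and Δmet at the CpG minus Δmet at the flank was −57.0 ± 7.38 and −58.6 ± 3.50. Opposite differences from Sc were called in ESCs +SssI (16.5 ± 6.88, 8.14 and not called without run 5) and in TET TKO ESCs (15.2 ± 9.09), where the Sc CpG minus its flank was −19.4 points. With all CpGs outside the motif as the flank, the TET TKO difference turned to −4.98.

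Within single runs the same 3 WT CpGs stayed low in NPs. Over the runs with at least 10 reads at the CpG, CTCF.1, CTCF.2 and REST ranged from 0 to 3.28% in both NP pools. The CpG was below its flank in 5 of 5, 5 of 5 and 3 of 3 runs in NPs −SssI and in 4 of 4, 6 of 6 and 4 of 4 runs in NPs +SssI. These runs may not all be separate samples. Runs 9, 10 and 2 of NPs −SssI, the only runs for REST there, agreed within sampling noise in reads per fragment. So did runs 11 and 1 of NPs +SssI. Along the whole fragment, these CpGs were the lowest of all 24 in both NP pools: the other 23 CpGs of REST WT spanned 4.76 to 92.6% in NPs −SssI and 8.53 to 91.2% in NPs +SssI, those of CTCF.1 WT 7.91 to 93.9% and 24.8 to 98.7%, and those of CTCF.2 WT 2.42 to 99.7% and 1.56 to 87.6%. The motif CpG of N-MYC WT was also the lowest of its fragment in NPs +SssI, but not in NPs −SssI. Among the Sc fragments, only CTCF.1 Sc had its motif CpG as the lowest of the fragment in the NP pools.

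The N-MYC CpG was also lower in WT, from lower coverage. N-MYC binds E-box elements whose central CpG is a known target of methylation. WT was at 25.4% in ESCs −SssI, 19.6% in ESCs +SssI, 35.9% in NPs −SssI, 38.6% in NPs +SssI and 99.1% in TET TKO ESCs, on 130, 92, 39, 874 and 227 reads, while Sc was at 50% in ESCs −SssI, 50.9% in ESCs +SssI, 91.2% in NPs −SssI, 84.3% in NPs +SssI and 83.9% in TET TKO ESCs. The forms were separated by −24.6, −31.4, −55.3 and −45.7 points in the first 4 pools, all called lower, and by 15.2 in TET TKO ESCs, called higher. Without runs 6 and 4 in turn the ESC −SssI value was −43.3 and −40.2, and without run 1 that call was lost (−12.8). In addition, without run 10 the TET TKO call was lost (0.617), and without run 7 the NP +SssI value was −17.7. In NPs +SssI no run held both forms with enough reads, so the difference between forms cannot be told apart from a difference between runs there. The WT CpG minus its flank was −29.5 points in ESCs −SssI and −29.3 and −44.6 in NPs, all called lower. It was −14.2 in ESCs +SssI and 1.44 in TET TKO ESCs, not called, and without run 2 the NP −SssI value was −50.9. The ESC −SssI value combined run 6, with the CpG at 44.6% and flank reads at 46.0%, and runs 5 and 1, with the CpG at 0 of 24 and 0 of 34 reads and flank reads at 95.8% and 97.1%. The NP +SssI value came from runs 9, 10 and 2, in which the CpG was at 42.4%, 34.4% and 38.5% and the flank reads at 81.3%, 85.7% and 82.9%. The excess over the Sc fragment was called lower in the first 4 pools, at −29.8 ± 14.6, −28.4 ± 16.0, −39.6 ± 21.8 and −44.2 ± 4.87, and was 0.425 ± 5.78 in TET TKO ESCs, and without run 2 the NP −SssI value was −59.8. N-MYC was the only motif with this difference called lower in 4 pools. With the downstream neighbour alone as the flank, it was 5.78 in ESCs −SssI, and the WT CpG minus that neighbour was 12.2.

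KLF4, a Krüppel-like zinc finger factor of the pluripotency network, had a WT CpG that was called above its flank in ESCs −SssI and below it in both NP pools. At WT the level was 28.2% in ESCs −SssI, 14.8% in ESCs +SssI, 40.7% in NPs −SssI, 75.1% in NPs +SssI and 80.4% in TET TKO ESCs, and at Sc it was 66.6% in ESCs −SssI, 78.5% in ESCs +SssI, 86.8% in NPs −SssI, 76.5% in NPs +SssI and 78.2% in TET TKO ESCs. Δmet was −38.5 and −63.6 points in ESCs and −46.1 in NPs −SssI, all called, and −1.39 and 2.24 in NPs +SssI and TET TKO ESCs, not called. Without run 9 the NP −SssI value was −80.6. In ESCs −SssI the WT flank was almost unmethylated (1.92%) and the motif CpG was 26.2 points above it, whereas in NPs the flanks had 62.4% and 90.8% and the CpG was −21.8 and −15.7 points away, each called. Against all CpGs outside the motif the last of these turned to 3.52. Against Sc the difference was 28.2 ± 7.56 in ESCs −SssI, and −17.9 ± 6.54, −23.0 ± 6.29 and −13.1 ± 7.71 in NPs −SssI, NPs +SssI and TET TKO ESCs, all called. Without run 2 the difference from the flank in NPs −SssI was −12.04, and the difference from Sc was −8.53 there, not called, and −15.2 in NPs +SssI. Without run 10 the latter difference in NPs −SssI was −11.1, and without run 9 the TET TKO call was lost (−5.92).

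The KLF4 values differed between runs. All WT reads in ESCs −SssI were from run 4, and within that run Δmet was 6.19 points in place of −38.5. In NPs −SssI the WT CpG was at 63.4% in run 9, 4.05% in run 10 and 6.80% in run 2, while flank reads were at 59.3%, 69.9% and 69.4%. In NPs +SssI the WT runs were at 72.7%, 82.5% and 71.0%, and the Sc CpG in those 3 runs was at 0%, 3.45% and 9.94%, so that Δmet within runs was 67.3. The pooled and the within-run comparison therefore differ for KLF4 in both pools.

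KLF7, a related Krüppel-like factor, gave calls in both directions between forms. WT was at 29.0% and 72.3% in the 2 ESC pools (−SssI first), 83.1% and 82.0% in the NP pools, and 81.1% without TET enzymes, and Sc at 58.2% and 42.3% in the 2 ESC pools (−SssI first), 94.0% and 90.3% in the NP pools, and 72.3% without TET enzymes. Δmet was called lower in ESCs −SssI (−29.2) and NPs −SssI (−10.9) and higher in ESCs +SssI (30.0). Within runs the ESC −SssI value was 8.87, and without run 4 it was 0.959. Without run 5 the ESC +SssI value was 12.5, not called, and the NP −SssI call was lost without any one of runs 9, 10, 11 and 2 (−9.03 to −7.93). The WT CpG was not called against its flank in any pool, the differences running from −5.77 to 5.20 points.

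NRF1, an activator of nuclear genes for mitochondrial function, has 2 CpGs in its palindromic site, and they were unequal in ESCs. CpG 1 of WT was at 27.3% and 67.5% in the 2 ESC pools (−SssI first), 99.1% and 81.8% in the NP pools, and 99.6% without TET enzymes. CpG 2 of WT was at 60.0% and 91.8% in the 2 ESC pools (−SssI first), 99.8% and 91.5% in the NP pools, and 99.6% without TET enzymes. On the same reads CpG 1 minus CpG 2 was −32.7 points in ESCs −SssI and −24.2 in ESCs +SssI, against −4.47 and −13.6 in Sc, and in NPs −SssI and TET TKO ESCs both WT CpGs were at 99.1% or more. CpG 2 was higher than the shared flank by 39.4 and 18.8 points in ESCs, both called, and CpG 1 differed from it by 6.75 and −5.46, not called. In ESCs −SssI Δmet was −45.2 at CpG 1 and −17.0 at CpG 2, both called lower. Without run 4 these were −0.921 and 2.95, not called, and no other pool gave a call between forms at either CpG. In NPs +SssI CpG 1 of WT was −10.3 points from its flank, called lower, but −4.32 without run 8 and −9.42 with the flank from summed reads.

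E2F1, a cell cycle regulator, also has 2 CpGs in its site. CpG 1 of WT was at 55.7% and 67.0% in the 2 ESC pools (−SssI first), 81.6% and 90.1% in the NP pools, and 95.04% without TET enzymes, and CpG 1 of Sc at 71.3% and 67.3% in the 2 ESC pools (−SssI first), 92.3% and 87.1% in the NP pools, and 88.7% without TET enzymes. CpG 2 of WT was at 39.8% and 55.1% in the 2 ESC pools (−SssI first), 76.8% and 91.6% in the NP pools, and 86.2% without TET enzymes, and CpG 2 of Sc at 73.2% and 87.0% in the 2 ESC pools (−SssI first), 100% and 83.1% in the NP pools, and 92.2% without TET enzymes. At CpG 2 Δmet was −33.3, −31.9 and −23.2 points in the first 3 pools, all called lower, and 8.51 and −5.99 in the others. Within runs the first 2 values were −51.0 and −9.03, and no run in NPs −SssI held both forms. Without run 1 the ESC −SssI value was −21.9, and without runs 4 and 5 in turn the ESC +SssI value was 3.30 and −55.0. CpG 1 was called lower in ESCs −SssI (−15.7) and NPs −SssI (−10.7). The former was −32.9, −1.68 and −5.52 without runs 3, 4 and 1 in turn, not called in the last 2 cases, and the latter was −18.4 without run 6 and not called without run 11, 8 or 7 (−8.41, −6.48 and −8.26). In NPs −SssI the difference from the flank relative to Sc was −33.2 ± 9.94 at CpG 1 and −45.8 ± 8.94 at CpG 2, but without run 8 these were 6.54 and −10.2, and without run 6 −72.7 and −77.5.

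ETS, the site of a large family of winged helix-turn-helix activators, was low at its WT CpG in ESCs −SssI. Its WT level was 13.5% and 76.6% in the 2 ESC pools (−SssI first), 85.2% and 91.3% in the NP pools, and 80.2% without TET enzymes, on 104 to 3190 reads, and the Sc level was 55.0% and 94.8% in the 2 ESC pools (−SssI first), 78.8% and 87.6% in the NP pools, and 98.0% without TET enzymes. Δmet was called lower in ESCs −SssI (−41.6, and −90.9 without run 4), ESCs +SssI (−18.2, and −7.58 without run 4) and TET TKO ESCs (−17.9, interval −21.4 to −14.0). The last was the only motif CpG with a lower call between forms in TET TKO ESCs, and it was −18.3 within runs and −11.04 without run 10. The ETS WT CpG minus its flank was −0.824 points in ESCs −SssI, while the Sc CpG was 18.1 points above its own.

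CREB, a leucine zipper factor that responds to cyclic AMP, gave 1 call between forms. WT was at 27.4% and 50% in the 2 ESC pools (−SssI first), 83.9% and 82.8% in the NP pools, and 97.0% without TET enzymes, and Sc at 37.3% and 36.2% in the 2 ESC pools (−SssI first), 89.8% and 92.1% in the NP pools, and 95.5% without TET enzymes. The call, 13.8 points higher in ESCs +SssI, had the value −0.205 without run 4. The WT CpG minus its flank was −15.1 points in ESCs −SssI, called lower, and in NPs +SssI it was called higher by 36.9, where the flank was at 45.8% on the WT and 81.4% on the Sc fragment. The latter was the largest positive difference from the flank among the WT motif CpGs in NPs, and the difference from Sc was 26.3 ± 10.8.

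KAISO and ZF5 are BTB domain zinc finger proteins with several CpGs in their sites. At KAISO, CpG 1 of WT was at 81.3% and 71.9% in the 2 ESC pools (−SssI first), 95.2% and 93.9% in the NP pools, and 87.7% without TET enzymes, and CpG 2 of WT at 82.6% and 62.4% in the 2 ESC pools (−SssI first), 99.1% and 90.5% in the NP pools, and 98.6% without TET enzymes. CpG 1 of Sc was at 43.9% and 71.2% in the 2 ESC pools (−SssI first), 94.4% and 99.4% in the NP pools, and 87.9% without TET enzymes, and CpG 2 of Sc at 32.4% and 51.9% in the 2 ESC pools (−SssI first), 82.7% and 96.0% in the NP pools, and 82.0% without TET enzymes. KAISO CpG 2 was the only motif CpG called higher in WT in 4 pools, by 50.2, 10.5, 16.4 and 16.6 points, with −5.45 in NPs +SssI. Within runs the ESC +SssI value was −10.1, so that call turned, and without runs 6, 4 and 5 in turn it was 1.36, 16.0 and −21.5. The NP −SssI and TET TKO values within runs were 16.2 and 15.4. In ESCs −SssI 137 of 139 Sc reads were from run 4, where CpG 2 was at 50% in WT (38 reads) and 32.8% in Sc. Its excess over the flanks was called higher in ESCs −SssI (21.1 ± 12.7), ESCs +SssI (10.98 ± 7.66) and NPs −SssI (15.8 ± 4.56). With summed flank reads the first of these was −4.78, with the upstream neighbour alone it was −3.53, without run 3 it was 8.18, and the second was not called without run 3, 6 or 5 (5.23, 7.36 and 10.3). At KAISO CpG 1 the single call between forms was in ESCs −SssI (37.4). In run 4 of that pool CpG 1 was at 50% in WT (38 reads) and 44.5% in Sc. Neither KAISO CpG had a value between forms there without run 4.

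At ZF5 the WT levels differed between its 3 CpGs in ESCs. CpGs 1, 2 and 3 of WT were at 16.3%, 28.9% and 28.9% in ESCs −SssI and at 44.5%, 33.0% and 18.3% in ESCs +SssI. In NPs they were at 98.3%, 84.8% and 77.4% (−SssI) and 79.3%, 81.8% and 72.4% (+SssI), and in TET TKO ESCs all 3 were at 99.0% or more. CpG 1 of Sc was at 26.3% and 56.3% in the 2 ESC pools (−SssI first), 95.7% and 91.7% in the NP pools, and 99.5% without TET enzymes, and CpG 3 of Sc at 19.2% and 42.9% in the 2 ESC pools (−SssI first), 86.4% and 88.4% in the NP pools, and 99.6% without TET enzymes. Lower calls between forms fell in the +SssI pools of ESCs (−11.8 at CpG 1 and −24.6 at CpG 3) and NPs (−12.4 and −15.9). Without run 4 the ESC values were 21.9 and 4.75, and without run 6 the value at CpG 1 was −26.3. In NPs +SssI no run held both forms, the values were −91.7 and −88.4 without run 7, and the call at CpG 1 was lost without run 1 (−7.89). Against its flank CpG 3 of WT was lower in ESCs +SssI (−28.6), NPs −SssI (−10.7) and NPs +SssI (−17.5), all called. The first of these was −67.7 without run 4 and −9.54, not called, without run 6, and the second was not called without run 10 (−7.24) or run 2 (−6.03).

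ER, PU.1 and PAX7.1 are sites of factors whose genes were near background in ESCs: the estrogen receptor, a blood lineage regulator and a muscle and neural crest regulator. At ER, WT was at 69.5% and 74.5% in the 2 ESC pools (−SssI first), 97.2% and 85.2% in the NP pools, and 98.9% without TET enzymes, and Sc at 0% and 55.6% in the 2 ESC pools (−SssI first), 86.4% and 88.9% in the NP pools, and 95.9% without TET enzymes, the first Sc value resting on 59 reads, which allow a level of up to 5.08%. ER WT was called higher in ESCs −SssI (69.5), ESCs +SssI (19.0) and NPs −SssI (10.8). Within runs the ESC +SssI value turned to −10.6, without run 5 it was −13.8, and the NP −SssI call was lost without run 9 (7.16) or run 11 (9.38). At PU.1, WT was at 55.8% and 67.7% in the 2 ESC pools (−SssI first), 99.1% and 90.7% in the NP pools, and 99.4% without TET enzymes, and Sc at 66.1% and 61.2% in the 2 ESC pools (−SssI first), 87.1% and 89.6% in the NP pools, and 99.2% without TET enzymes. Its calls between forms were −10.3 in ESCs −SssI (0.426, −18.1 and −11.2 without runs 4, 5 and 1 in turn, called only in the second case) and 12.01 in NPs −SssI (not called without run 10 or 2, at 9.46 and 9.68), and the PU.1 WT CpG was 28.4 points above its flank in NPs −SssI, called. At PAX7.1, WT was at 70.6% and 57.3% in the 2 ESC pools (−SssI first), 93.1% and 72.5% in the NP pools, and 81.7% without TET enzymes, and Sc at 62.8% and 43.2% in the 2 ESC pools (−SssI first), 93.2% and 80.1% in the NP pools, and 86.5% without TET enzymes. The only call between its forms was 14.1 in ESCs +SssI, which was −16.4 within runs and 5.98 without run 5.

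Differences from the flank at ER and PAX7.1 WT in ESCs −SssI depended on how the flank was formed. They were 15.0 and 18.0 points with the mean of both neighbours, which set the direction of both calls as higher. The p-values of these calls came from the summed reads of both neighbours, whose differences had the opposite sign. With the flank from summed reads they were −10.1 and −15.2, both called lower, and within runs −10.3 and −15.2. For ER the value with the mean of both neighbours was −24.2, called lower, without run 4 and 24.0, not called, without run 5. The upstream amplicon held 90.7% and 91.8% of the flank reads of these fragments.

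Where a motif held more than 1 CpG, the CpGs of one fragment could be compared on largely the same reads, as a description without a test. In WT, 12 of 30 pairs over the 5 pools were at least 10 points apart (median distance 9.09 points, largest 32.7, NRF1 in ESCs −SssI), and in Sc 6 of 20 were (median 5.38, largest 19.7). Across all motif CpGs of a pool, Pearson's r between the level at the CpG and that of its flank over 20 WT CpGs on 15 fragments was 0.76, 0.88, 0.93, 0.70 and 0.82 (the pools in the order used throughout), and over 19 Sc CpGs it was 0.88, 0.62, −0.06, 0.32 and 0.55. The CpGs share fragments, runs and amplicons, so these values describe the pools only.

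Δmet at the motif CpG was then compared between pools by a z test over all CpGs. From ESCs −SssI to NPs −SssI, 8 CpGs had a lower and 7 a higher Δmet (30.9% and 38.1% of all CpGs tested), and from ESCs +SssI to NPs +SssI 8 and 3 (23.7% and 38.5%). The lower ones in both included CTCF.2 (−26.6 ± 2.70 and −40.4 ± 10.3 points), N-MYC (−30.6 ± 18.3 and −14.3 ± 11.8) and REST (−60.0 ± 13.0 and −43.5 ± 5.06), whereas CTCF.1 was lower in the −SssI contrast (−14.4 ± 7.32) and not called in the +SssI one (−4.68 ± 7.58). For N-MYC the −SssI call was lost without run 6 (−11.96) or run 4 (−15.1) of ESCs, and the +SssI value was 13.6 without run 7 of NPs. For CTCF.1 the −SssI value was 8.02 without run 7 of ESCs and −22.6 without run 11 of NPs. For CTCF.2 the +SssI value was −26.4 and −63.2 without runs 6 and 5 of ESCs in turn, still called. For REST the −SssI value rested on run 4 of ESCs, which held 212 WT reads. Without it too few WT reads were left for a value, and no other run ended a call for REST. Using only runs that held both forms, the −SssI values were −30.2 for CTCF.2, −37.9 for N-MYC and −61.6 for REST, while that for CTCF.1 turned to 4.70. In the +SssI contrast they were −22.4 for CTCF.2, −20.3 for REST and 14.8 for CTCF.1, and no run in NPs +SssI held both forms of N-MYC. Between ESCs −SssI and ESCs +SssI, with the former subtracted from the latter, 5 CpGs were lower and 7 higher (39.2% and 26.3%). CTCF.1, CTCF.2, REST and N-MYC were not among them, at 2.35 ± 7.47, 5.03 ± 10.2, −6.98 ± 13.2 and −6.76 ± 15.6. Without run 4 of ESCs −SssI only 3 of the 12 calls in that contrast were made. From NPs −SssI to NPs +SssI, 4 were lower and 4 higher (32.3% and 23.7%), the largest being KLF4 (44.7 ± 6.64, 79.3 without run 9 of NPs −SssI, and 114 within runs).

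In TET TKO ESCs Δmet was called at 3 of the 19 motif CpGs (ETS lower, N-MYC and KAISO CpG 2 higher), as given above. Relative to ESCs +SssI, 3 CpGs in TET TKO ESCs had a lower and 9 a higher Δmet (17.1% and 48.3% of all CpGs), so the share of higher calls at the motif was near that along the fragments. The largest were KLF4 (65.9 ± 6.10), N-MYC (46.6 ± 11.8), REST (43.2 ± 8.64), CTCF.2 (39.1 ± 10.7) and CTCF.1 (38.1 ± 9.90). For CTCF.1 the value was 64.9 and 17.8 without runs 4 and 5 of ESCs in turn, for CTCF.2 it was 16.4 without run 5 of ESCs, not called, and for REST it was 26.0 without run 10 of TET TKO ESCs. Without run 4 of ESCs +SssI 6 of the 12 calls in this contrast were made. Within runs the 5 values were 84.8, 41.0, 62.5, 58.7 and 35.1 in the order given. The lines differ in strain as well as in genotype. In addition, reads methylated outside CpGs were removed in ESCs +SssI but not in TET TKO ESCs. These differences cannot be told apart here.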

How the data were processed

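Methylation at CpGs of FR1 was measured by Hi-TransMet in 7 samples that form 5 pools, of 24 samples in the series, and transcripts by RNA sequencing in 9 libraries, 3 per cell type. Per the submitters' processing notes, the authors trimmed reads with Trim Galore 0.4.4 and aligned bisulfite reads with Bismark 0.20.0. Their methods add removal of duplicates by molecular identifier, assignment to motifs by barcode with 0 mismatches, and, in every pool but that of TET TKO ESCs, removal of reads methylated outside CpGs. The deposited counts are methylated and total reads per CpG, fragment and sequencing run, not normalized. Of the 5 pools, 2 have 2 samples that share a table, whose runs were summed as 1 pool. In both (ESCs −SssI and NPs +SssI) the title of the second sample names a Sanger sequencer. The labels do not say which runs belong to it. The deposited percent tables of the same pools were not used. RNA counts per gene were deposited by the authors after Trimmomatic 0.38, STAR 2.6.1b and featureCounts, without strand, and were converted to RPKM over library totals of 20519702 to 23976914 reads in ESCs and NPs and 80704741 to 93210102 in TET TKO ESCs.

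CpGs numbered 1 to 3 inside a motif were members, with a minimum of 10 reads. WT was compared with Sc, and each CpG with its nearest neighbours outside the motif, by two-sided Fisher's exact tests, the latter on summed reads of the neighbours. Differences of differences were compared by z tests with 1 methylated and 1 unmethylated read added. Every test was run at all CpGs from 291 bp before to 252 bp after the motif start, p-values were adjusted by Benjamini-Hochberg over them within a pool or contrast, and calls needed an adjusted p under 0.05 and 10 points. Intervals are 95% Wilson for levels, Newcombe for differences and normal for differences of differences. A level of 0 is given with the limit of 3 counts. Python 3.11.15, scipy 1.17.1, pandas 2.3.3, R 4.3.3 and edgeR 4.0.16 (TMM alternative for RPKM only) were used, and the tests were tested on simulated data. The study's own package for differential methylation was not used. Runs that agree within sampling noise (chi-square p over 0.05 on reads per fragment, in each amplicon with at least 100 reads in both runs) were runs 5, 1 and 2 of ESCs −SssI, 9, 10 and 2 of NPs −SssI, 11 and 1 of NPs +SssI, and 10 and 11 of TET TKO ESCs, and counting them once was an alternative. The other alternatives were other coverage minimums, a 20 point limit, comparison within runs or run numbers, other flanks and leaving out each run. All motifs with a CpG inside are named, with expression for their factors and for marker genes. Members and lists were chosen with earlier results of these data known. Tables of single transgenic lines and siRNA knockdowns hold no reads at a CpG inside a motif and were not used.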

Additional observations from a re-analysis of the deposited data

Results flagged for a closer look

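At 58 motif CpGs and contrasts between pools, Δmet (WT minus Sc at the motif CpG) differed between 2 pools by a z test of the difference itself, adjusted over all CpGs of the contrast, and by at least 10 points. The contrasts share pools, so their values are not independent, and they are given in points. A value after the first is that found without a single run, where this ended the call or moved the value by more than 1.5 times. In some cases too few reads were left for a value, and none is given. In contrasts with ESCs −SssI this held for ER, KLF4, KAISO, REST and ZF5 without run 4. With ESCs +SssI it held for ER, KLF4, N-MYC and PAX7.1 without run 4. It also held without run 7 for N-MYC (NPs −SssI) and ER (NPs +SssI). Calls between pools were frequent among all CpGs tested, not only in the motifs. Of 19 motif CpGs, 26.3% were called lower and 36.8% higher between the ESC pools, against 39.2% and 26.3% of all CpGs. Between the NP pools these shares were 21.1% and 21.1% against 32.3% and 23.7%. From ESCs to NPs they were 42.1% and 36.8% against 30.9% and 38.1% (−SssI), and 42.1% and 15.8% against 23.7% and 38.5% (+SssI). From ESCs +SssI to TET TKO ESCs they were 15.8% and 47.4% against 17.1% and 48.3%.

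From ESCs −SssI to ESCs +SssI, Δmet was lower at ER (−50.5, −83.3 without run 5 of ESCs +SssI), KLF4 (−25.2, −41.3 without run 5 of ESCs +SssI), KAISO CpG 1 (−36.8, −89.1 without run 5 of ESCs +SssI), KAISO CpG 2 (−39.7, −71.8 without run 5 of ESCs +SssI) and ZF5 CpG 3 (−34.3, −4.95 and not called without run 4 of ESCs +SssI). It was higher at KLF7 (59.2, 29.0 without run 4 of ESCs −SssI), NRF1 CpG 1 (43.5, −0.821 and not called without run 4 of ESCs −SssI), NRF1 CpG 2 (26.0, 5.97 to 19.3 and not called without run 4 of ESCs −SssI or run 5 of ESCs +SssI), PU.1 (16.8, 6.05 to 14.8 and not called without run 4 of ESCs −SssI or run 4 or 5 of ESCs +SssI), E2F1 CpG 1 (15.4, 32.6 to 43.6 without run 3 of ESCs −SssI or run 4 of ESCs +SssI, −28.7 and called in the other direction without run 5 of ESCs +SssI, 1.40 to 5.25 and not called without run 4 or 1 of ESCs −SssI), ETS (23.4, 14.8 to 72.7 without run 4 or 5 of ESCs −SssI) and CREB (23.8, 9.77 and not called without run 4 of ESCs +SssI). From NPs −SssI to NPs +SssI it was lower at ER (−14.5), PU.1 (−10.9, −8.58 to −7.03 and not called without run 10 or 2 of NPs −SssI or run 11 or 1 of NPs +SssI), KAISO CpG 2 (−21.9) and ZF5 CpG 1 (−15.1, −94.4 without run 7 of NPs +SssI, −8.86 and not called without run 9 of NPs −SssI), and higher at CTCF.1 (12.1, 20.2 without run 11 of NPs −SssI, 6.17 to 9.30 and not called without run 10, 2 or 8 of NPs −SssI or run 1 of NPs +SssI), KLF4 (44.7, 79.3 without run 9 of NPs −SssI), E2F1 CpG 1 (13.7, 21.4 without run 6 of NPs −SssI, 9.52 and not called without run 8 of NPs −SssI) and E2F1 CpG 2 (31.7).

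From ESCs −SssI to NPs −SssI, Δmet was lower at CTCF.1 (−14.4, −22.6 without run 11 of NPs −SssI, 8.02 and not called without run 7 of ESCs −SssI), CTCF.2 (−26.6), ER (−58.7), N-MYC (−30.6, −15.1 to −11.96 and not called without run 6 or 4 of ESCs −SssI), KAISO CpG 1 (−36.7), KAISO CpG 2 (−33.8), REST (−60.0) and ZF5 CpG 3 (−18.7, −38.2 without run 9 of NPs −SssI). Using only runs that held both forms, the values were 2.07 at KAISO CpG 1 and −0.981 at KAISO CpG 2, neither called. They were −42.7 at ER and −61.6 at REST, both called. It was higher at KLF7 (18.4, 12.2 without run 8 of NPs −SssI, −11.8 to 9.84 and not called without run 4 or 1 of ESCs −SssI), NRF1 CpG 1 (50.1, 5.80 and not called without run 4 of ESCs −SssI), NRF1 CpG 2 (21.9, 1.961 and not called without run 4 of ESCs −SssI), PU.1 (22.4, 11.6 without run 4 of ESCs −SssI), E2F1 CpG 2 (10.1, 26.3 without run 3 of ESCs −SssI, −1.35 to 9.80 and not called without run 4, 5 or 1 of ESCs −SssI or run 9 or 7 of NPs −SssI), ETS (48.0, 97.3 without run 4 of ESCs −SssI) and ZF5 CpG 1 (12.6, 6.39 and not called without run 9 of NPs −SssI). From ESCs +SssI to NPs +SssI the lower values were at CTCF.2 (−40.4, −63.2 to −26.4 without run 6 or 5 of ESCs +SssI), ER (−22.7, 10.1 and not called without run 5 of ESCs +SssI), KLF7 (−38.3, −20.8 and not called without run 5 of ESCs +SssI), N-MYC (−14.3, 13.6 and not called without run 7 of NPs +SssI), KAISO CpG 2 (−15.9, 16.1 and called in the other direction without run 5 of ESCs +SssI, −6.81 and not called without run 6 of ESCs +SssI), CREB (−23.1, −9.07 and not called without run 4 of ESCs +SssI), REST (−43.5) and PAX7.1 (−21.7, −13.6 without run 5 of ESCs +SssI), and the higher ones at KLF4 (62.3), E2F1 CpG 2 (40.5, 63.5 without run 5 of ESCs +SssI, 5.22 and not called without run 4 of ESCs +SssI) and ETS (21.9, 11.3 without run 4 of ESCs +SssI). REST, CTCF.2 and N-MYC were lower in both contrasts between cell types, and ER and KAISO CpG 2 also were, the latter from higher values in ESCs.

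From ESCs +SssI to TET TKO ESCs, Δmet was lower at KLF7 (−21.1, −3.62 and not called without run 5 of ESCs +SssI), CREB (−12.2, 1.76 and not called without run 4 of ESCs +SssI) and PAX7.1 (−18.9, −12.03 to −10.8 and not called without run 5 of ESCs +SssI or run 10 of TET TKO ESCs) and higher at CTCF.1 (38.1, 17.8 to 64.9 without run 4 or 5 of ESCs +SssI), CTCF.2 (39.1, 16.4 and not called without run 5 of ESCs +SssI), KLF4 (65.9), NRF1 CpG 1 (10.5, 17.0 without run 10 of TET TKO ESCs, −3.51 to 10.1 and not called without run 4 or 5 of ESCs +SssI or run 11 of TET TKO ESCs), E2F1 CpG 2 (26.0, 49.0 without run 5 of ESCs +SssI, −9.29 and not called without run 4 of ESCs +SssI), N-MYC (46.6), REST (43.2, 26.0 without run 10 of TET TKO ESCs), ZF5 CpG 1 (11.9, 26.4 without run 6 of ESCs +SssI, −21.9 and called in the other direction without run 4 of ESCs +SssI) and ZF5 CpG 3 (23.9, −5.43 and not called without run 4 of ESCs +SssI). In all, 31 of the 58 calls were lost without at least 1 run, not counting cases left without a value. Using only runs that held both forms, 51 of the 58 had a value, of which 37 were called again and 7 had the opposite sign.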

How the results depend on the processing

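Calls rest on reads of pooled runs, and 1 run was left out at a time: 21 of 49 calls between WT and Sc, 26 of 65 against the flank, 13 of 41 against the flank relative to Sc and 31 of 58 between pools were lost without some run. The cause was not tested. Calls left with too few reads for a value are not counted as lost. Between WT and Sc, REST, KLF4, ER and both KAISO CpGs in ESCs −SssI had no value without run 4. The same held for ER, KLF4, N-MYC and PAX7.1 in ESCs +SssI without run 4, and for N-MYC in NPs −SssI without run 7. Over the runs left out in turn, the difference between WT and Sc changed sign at CREB in ESCs +SssI (−0.205 to 18.3), E2F1 CpG 2 in ESCs +SssI (−55.0 to 3.30), ER in ESCs +SssI (−13.8 to 22.2), KAISO CpG 2 in ESCs +SssI (−21.5 to 16.0), KLF7 in ESCs −SssI (−31.8 to 0.959), NRF1 CpG 2 in ESCs −SssI (−17.0 to 2.95), PU.1 in ESCs −SssI (−18.1 to 0.426), ZF5 CpG 1 in ESCs +SssI (−26.3 to 21.9) and ZF5 CpG 3 in ESCs +SssI (−28.4 to 4.75). The difference from the flank did so at E2F1 Sc CpG 1 in NPs −SssI (−11.9 to 67.3) and ER WT in ESCs −SssI (−24.2 to 24.0), and the same relative to Sc at E2F1 CpG 1 in NPs −SssI (−72.7 to 6.54). Between pools the change of Δmet turned at CREB in TET TKO ESCs minus ESCs +SssI (−16.8 to 1.76), CTCF.1 in NPs −SssI minus ESCs −SssI (−22.6 to 8.02), E2F1 CpG 1 in ESCs +SssI minus ESCs −SssI (−28.7 to 43.6), E2F1 CpG 2 in NPs −SssI minus ESCs −SssI (−1.35 to 26.3), E2F1 CpG 2 in TET TKO ESCs minus ESCs +SssI (−9.29 to 49.0), ER in NPs +SssI minus ESCs +SssI (−25.9 to 10.1), KAISO CpG 2 in NPs +SssI minus ESCs +SssI (−21.4 to 16.1), KLF7 in NPs −SssI minus ESCs −SssI (−11.8 to 21.3), N-MYC in NPs +SssI minus ESCs +SssI (−18.9 to 13.6), NRF1 CpG 1 in ESCs +SssI minus ESCs −SssI (−0.821 to 57.5), NRF1 CpG 1 in TET TKO ESCs minus ESCs +SssI (−3.51 to 17.0), ZF5 CpG 1 in TET TKO ESCs minus ESCs +SssI (−21.9 to 26.4) and ZF5 CpG 3 in TET TKO ESCs minus ESCs +SssI (−5.43 to 27.7). The number of calls between pools ranged from 3 to 13 around 12 for ESCs +SssI against ESCs −SssI, from 5 to 16 around 15 for NPs −SssI against ESCs −SssI, and from 6 to 13 around 12 for TET TKO ESCs against ESCs +SssI. Compared within runs, the difference between WT and Sc turned at ER in ESCs +SssI (−10.6), KAISO CpG 2 in ESCs +SssI (−10.1), KLF4 in ESCs −SssI (6.19), KLF7 in ESCs −SssI (8.87), NRF1 CpG 2 in ESCs −SssI (7.02) and PAX7.1 in ESCs +SssI (−16.4), and that from the flank at ER WT in ESCs −SssI (−10.3) and PAX7.1 WT in ESCs −SssI (−15.2).

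The flank comparisons also depended on which CpGs formed the flank. With the upstream neighbour alone the difference turned at E2F1 WT CpG 2 in ESCs +SssI (−1.78), ER WT in ESCs −SssI (−15.9), PAX7.1 WT in ESCs −SssI (−21.6) and ZF5 WT CpG 1 in ESCs −SssI (3.25), and relative to Sc at ETS in ESCs −SssI (4.998) and KAISO CpG 2 in ESCs −SssI (−3.53). With the downstream neighbour alone it turned at E2F1 WT CpG 2 in ESCs −SssI (15.1) and N-MYC WT in ESCs −SssI (12.2), and relative to Sc at E2F1 CpG 2 in ESCs −SssI (3.27) and N-MYC in ESCs −SssI (5.78), and higher calls were 42 in place of 23 and, relative to Sc, 23 in place of 14. Against all CpGs outside the motif it turned at ER WT in ESCs −SssI (−1.97), KLF4 WT in NPs +SssI (3.52), PAX7.1 WT in ESCs −SssI (−5.32) and ZF5 WT CpG 1 in NPs +SssI (1.86), and relative to Sc at E2F1 CpG 2 in TET TKO ESCs (0.725), ETS in TET TKO ESCs (9.94) and REST in TET TKO ESCs (−4.98). Higher calls were then 12, and 11 with 3 neighbours on each side. With the flank from summed reads, an alternative chosen after seeing the data, it turned at ER WT in ESCs −SssI (−10.1) and PAX7.1 WT in ESCs −SssI (−15.2), and relative to Sc at KAISO CpG 2 in ESCs −SssI (−4.78). Counting runs that agree within sampling noise once turned E2F1 CpG 2 in NPs −SssI minus ESCs −SssI (−0.0711).

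With calls at 20 points in place of 10, higher calls were 4 of 13 between WT and Sc, lower and higher calls 17 of 42 and 8 of 23 against the flank and 15 of 27 and 9 of 14 relative to Sc, and 3 of 8 remained in number between the NP pools. Coverage minimums of 1, 20 and 50 reads kept all counts within 1.5 times. The least covered CpG had 39 reads, so a difference of 10 points is not detectable everywhere. Some alternatives for the contrasts between pools were chosen after seeing the data. Within runs that held both forms, the change of Δmet turned at CTCF.1 in NPs −SssI minus ESCs −SssI (4.70), KAISO CpG 1 in NPs −SssI minus ESCs −SssI (2.07), KAISO CpG 2 in NPs +SssI minus ESCs +SssI (4.33), KLF7 in NPs −SssI minus ESCs −SssI (−20.4), NRF1 CpG 2 in NPs −SssI minus ESCs −SssI (−0.933), PAX7.1 in NPs +SssI minus ESCs +SssI (27.8) and PAX7.1 in TET TKO ESCs minus ESCs +SssI (12.3). Run numbers recur between pools, but the labels do not say that a number marks the same experiment. With the run number as a replicate block, calls were 10 in place of 12 between the ESC pools and 7 in place of 8 between the NP pools, and CREB turned (−4.13, between the ESC pools). They were 0 in place of 15 and 0 in place of 11 between ESCs and NPs (−SssI and +SssI), where 2 and 1 CpGs had a value, and TET TKO ESCs share no run number with ESCs +SssI. The RNA libraries share numbers between cell types, but their levels come from no test.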

Other observations

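The control fragment without a motif has a CpG at the insertion site that carries the same position number. Its level was 29.1% and 54.0% in the 2 ESC pools (−SssI first), 64.8% and 62.9% in the NP pools, and 57.6% without TET enzymes. It was called lower than its nearest neighbours in all 5 pools, with differences of −15.6, −11, −19.2, −22.7 and −35.6 points in the same order.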
